A study of Homo sapiens with 9 samples.

Results

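The RNA-seq libraries of OVCAR4 cells carrying shMPZL3 #2 were compared with those carrying a scramble hairpin, across all genes. The members are the 3 libraries labelled with this hairpin and the 3 scramble (scr) control libraries, chosen from the labels alone, which is 6 of the 9 libraries of the study. OVCAR4 is an established human cell line from a high-grade serous ovarian carcinoma. All 9 libraries came from cultures transduced with a lentivirus, selected with puromycin for 3 days and extracted as total RNA, so that the controls carried vector, selection and a hairpin as well. The scr control group has the label WT and each hairpin group the label MPZL3 knock-down, with 3 biological replicates in a group. The other 3 libraries carried shMPZL3 #1, which targets another site of the same gene, and they enter below through the shared estimate of spread and through a direct contrast between the hairpins. Only 1 cell line and 1 hairpin are described here, so effects of losing MPZL3 cannot be told apart from other effects of this hairpin within the 6 libraries.

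MPZL3, myelin protein zero-like 3, is a membrane protein with an immunoglobulin-like domain, from a family known for cell adhesion. A short hairpin RNA is transcribed from an integrated lentivirus and cut by Dicer to a small RNA that guides degradation of the matching transcript. Interferon-stimulated genes are the antiviral genes switched on, through STAT and IRF factors, by interferons and by sensors of foreign nucleic acid. NF-kB is the transcription factor family that switches on chemokines and other inflammatory genes.

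The deposited table held 58735 genes, and 16928 of them had enough counts to be tested, which together took 99.85% to 99.88% of the counts of each library. The total counts ranged from 15040102 to 27835841 per library. A normalized count here is the count scaled to the mean effective library size of 20536320, and all fold changes are log2 values of shMPZL3 #2 minus scr control, given ± the standard error. A gene was called when the adjusted p of the edgeR quasi-likelihood test was under 0.05, and p-values here are adjusted over all genes tested. The epithelial and Mullerian markers PAX8, MUC16, EPCAM, KRT7 and CDH1 each had at least 3381 counts in every one of the 6 libraries, while WT1, another usual marker of serous carcinoma, had 3 to 11. Of 21 markers of fibroblasts, endothelium, immune cells and mesothelium, 8 to 11 had at most 3 counts in a given library, DCN had 0 in all and CD68 at most 1. UPK3B, a marker of mesothelium on the same list, had 1835 to 3599 counts, VWF of endothelium 67 to 151 and CDH5 of endothelium 50 to 200. The summed level of these 21 markers was 142.9 to 148.5 CPM (reads scaled to a common library total) in scr control and 151 to 209.3 with shMPZL3 #2.

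The control libraries were not equally alike. Replicate 1 of scr control was the lowest of the 3 controls for 60 of 69 interferon-stimulated genes tested and for 19 of 21 HLA class I genes, against 6507 of all 16928 genes. It was also the highest control for 66 of 84 ribosomal protein genes, against 6271 of all genes. Counts of called genes are therefore also given without this library for most lists.

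MPZL3 itself (ENSG00000160588, chromosome 11, 118226690 to 118252350, minus strand, hg38) was lower with this hairpin but far from absent. It had 536, 611 and 587 normalized counts in scr control and 284, 380.4 and 271 with shMPZL3 #2 (log2 fold change -0.89 ± 0.15, adjusted p = 0.000562). All 3 knockdown libraries lay below all 3 controls, and the mean level was 1.86-fold lower. On the 6 values alone, a two-sided exact permutation test gave p = 0.1, which is the smallest that 3 against 3 allows. The libraries of shMPZL3 #1 had 119, 143 and 123 normalized counts of MPZL3, and the level with shMPZL3 #2 was higher than with shMPZL3 #1 by 1.28 ± 0.16 on the log2 scale (adjusted p = 5.72e-05). Within 500 kb of the gene, 22 others were tested, of which 0 rose and 2 fell by the edgeR test. Over all genes tested, 9.36% rose and 5.8% fell. TMPRSS4, a membrane serine protease, was 1 of the 2 neighbours that fell (log2 fold change -0.67 ± 0.10, adjusted p = 0.000297). The other was DDX6, named after its values were seen (log2 fold change -0.27 ± 0.09, adjusted p = 0.0497).

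Across all genes, 1585 rose with shMPZL3 #2 (9.36% of those tested) and 982 fell (5.8%). The counts of the gene lists below are to be read beside these shares. The rises were larger than the falls. At least 2-fold higher were 572 genes (3.38%) and at least 2-fold lower 114 (0.673%), while the median of all genes was 0.003. The split varied with level. In the quartile of genes with the highest level 437 rose and 506 fell, of which 65 and 13 changed at least 2-fold. In the quartile with the lowest level 219 rose and 46 fell, of which 216 and 45 changed at least 2-fold. In 3165 genes (18.7%) all 3 knockdown libraries lay above all 3 controls, and in 2984 (17.6%) all lay below. Protein-coding genes took most of the calls, with 1460 of 13651 higher and 906 lower. Of 749 lincRNA genes 48 were higher and 13 lower, and of 961 pseudogenes 31 and 22. Where 0 genes of a group or list are given as higher or lower with all libraries, here and in the contrast with shMPZL3 #1, at most 2 of its members had an unadjusted p under 0.05 in that direction by edgeR, and DESeq2 called 0. With a library left out, a group has 2 libraries and fewer genes can pass the test. The count of higher genes was 910 without scr control replicate 1 and 1012 without shMPZL3 #2 replicate 3. The count of lower genes was 488, 501 and 641 without scr control replicate 1, 2 or 3, 609 without shMPZL3 #2 replicate 1 and 354 without replicate 3.

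**Figure D1:**
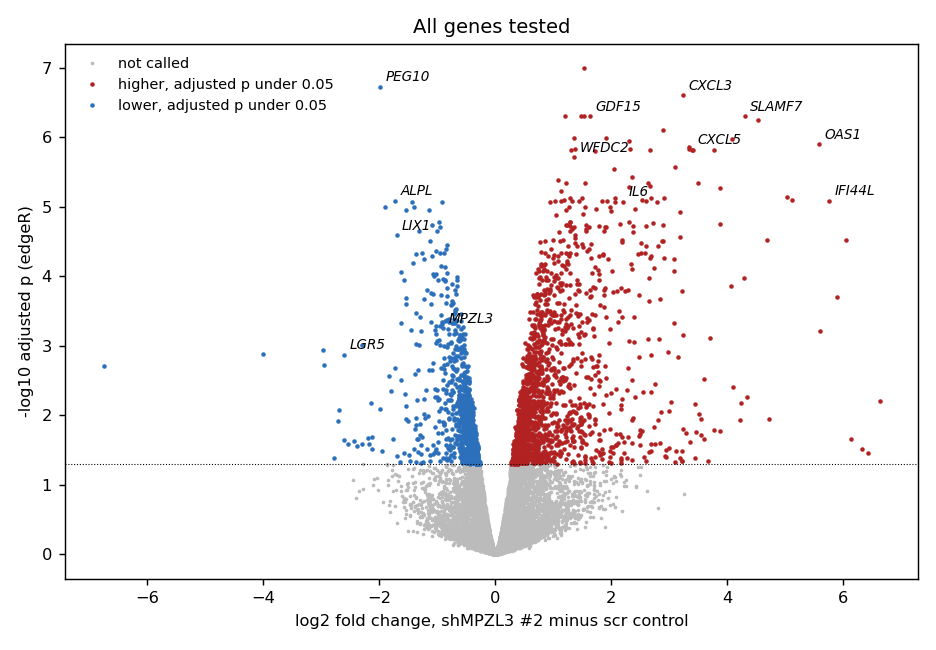
Log2 fold change of shMPZL3 #2 against scr control (x axis) and -log10 adjusted p of the edgeR quasi-likelihood test (y axis) for the 16928 genes tested. Red points are the 1585 genes called higher, blue points the 982 called lower, grey points the rest, and the dotted line is an adjusted p of 0.05. The far right holds interferon-stimulated genes such as OAS1 and IFI44L, and the far left fewer genes.

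Interferon-stimulated genes made up 9 of the 10 largest rises by the rule for named genes (called protein-coding genes that averaged at least 1 log2 CPM and whose groups did not overlap). Of 69 tested, 62 were called higher and 0 lower, 55 of them at least 2-fold, and the median log2 fold change of the list was 1.69 against 0.003 for all genes. In 63 of the 69 no control reached the lowest library with the hairpin, which held for 18.7% of all genes tested. Without scr control replicate 1, 57 were called higher and the median was 1.56. Before their values, the short stretches around a known regulatory motif in some of their promoters are shown, because it was more frequent on this list than over all promoter windows. The motif is the core of the interferon-stimulated response element, GAAANNGAAA, where N is any base, searched on both strands of RefSeq windows (GRCh38.p14) from 250 bases before to 50 bases after each gene start. It stood in 3.57% of 35116 such windows. Of 54 listed genes that could be matched, 37 had it in any of their windows (68.5%). Some genes have several windows, so a share of genes and a share of windows are not the same measure. Of the 50 matched genes called higher 34 had it and 16 did not, and of the 4 not called higher 3 had it. For HLA class I genes, 11 of 17 matched genes had it (64.7%). Capitals mark the matches, a match on the other strand reads TTTCNNTTTC, and each sequence is given on the gene's own strand.
IFI44L, chr1:78620272-78620396, plus strand: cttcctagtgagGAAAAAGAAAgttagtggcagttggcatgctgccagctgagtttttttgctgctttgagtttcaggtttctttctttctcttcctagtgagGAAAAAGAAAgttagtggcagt
IFI6, chr1:27672264-27672360, minus strand: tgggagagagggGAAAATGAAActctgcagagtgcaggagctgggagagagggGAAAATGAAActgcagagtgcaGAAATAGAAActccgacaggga
IFIT1, chr10:89392495-89392541, plus strand: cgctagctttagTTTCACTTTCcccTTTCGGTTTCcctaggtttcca
ISG15, chr1:1013372-1013411, plus strand: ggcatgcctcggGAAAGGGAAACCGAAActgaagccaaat
B2M, chr15:44711361-44711400, plus strand: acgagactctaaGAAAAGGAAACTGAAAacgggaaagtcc
TAPBP, chr6:33314071-33314110, minus strand: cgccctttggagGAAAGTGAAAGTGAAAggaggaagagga
A match is a description of the letters in the window and shows neither binding nor a cause.

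The synthetases that make 2-5A, the messenger that activates RNase L, had large rises. OAS2 (ENSG00000111335, chromosome 12, 112978395 to 113011723) had 1.33, 6.6 and 19.2 normalized counts in scr control and 397, 586 and 779 with shMPZL3 #2 (log2 fold change 6.06 ± 0.72, adjusted p = 2.97e-05). OAS1 (ENSG00000089127, chromosome 12, 112906777 to 112933222) had 3.99, 6.6 and 24.8 normalized counts in scr control and 392, 581 and 643 with shMPZL3 #2 (log2 fold change 5.58 ± 0.47, adjusted p = 1.26e-06), and OAS3 had 89.1, 195 and 256 normalized counts in scr control and 2224, 2418 and 2789 with shMPZL3 #2 (log2 fold change 3.78 ± 0.33, adjusted p = 1.5e-06). In each of these 3 genes the lowest knockdown library lay far above the highest control, and replicate 1 was the lowest of the controls. The raw counts of OAS2 in scr control were 1, 7 and 14, so that the size of its fold change rests on few control reads.

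Genes of unknown or membrane-linked antiviral function moved with them. IFI44L had 2.66, 4.72 and 20.6 normalized counts in scr control and 303.7, 487 and 655 with shMPZL3 #2 (log2 fold change 5.76 ± 0.60, adjusted p = 8.15e-06). The related IFI44 had 23.9, 28.3 and 35.8 normalized counts in scr control and 464, 789 and 774 with shMPZL3 #2 (log2 fold change 4.53 ± 0.35, adjusted p = 5.65e-07). IFI6, a small mitochondrial and endoplasmic reticulum protein, had 79.8, 134 and 204 normalized counts in scr control and 4914, 4776 and 3891 with shMPZL3 #2 (log2 fold change 5.03 ± 0.50, adjusted p = 7.13e-06). The 3 controls of IFI44L differed several-fold among themselves, whereas those of IFI44 were close, and the groups did not overlap in either gene.

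Effectors that act on viral RNA or capsids followed. MX1, a dynamin-like GTPase, had 159.6, 197 and 384 normalized counts in scr control and 2765, 3201 and 4845 with shMPZL3 #2 (log2 fold change 3.88 ± 0.38, adjusted p = 5.36e-06). IFIT1, which binds RNA with a foreign 5' end, had 49.2, 63.2 and 113 normalized counts in scr control and 411, 703 and 921 with shMPZL3 #2 (log2 fold change 3.19 ± 0.35, adjusted p = 1.2e-05), and its gene overlaps LIPA, whose own log2 fold change was 0.39. ISG15, the ubiquitin-like modifier, had 572, 833 and 998 normalized counts in scr control and 4462, 5115 and 5405 with shMPZL3 #2 (log2 fold change 2.64 ± 0.25, adjusted p = 4.59e-06). All libraries with the hairpin were above all controls in these genes. BST2, tetherin, rose from a mean of 763 ± 94.4 to 3766 ± 270.5 normalized counts (log2 fold change 2.30 ± 0.19, adjusted p = 1.14e-06), XAF1, a proapoptotic interferon target, from 13.5 ± 8.34 to 229 ± 46.6 normalized counts (log2 fold change 4.08 ± 0.34, adjusted p = 1.06e-06) and TRIM22 from 16.1 ± 6.06 to 247 ± 102 normalized counts (log2 fold change 3.88 ± 0.44, adjusted p = 1.77e-05). TRIM22 overlaps TRIM5, which had a log2 fold change of 0.14. SLAMF7, a receptor of lymphoid cells that is not on the interferon list, was among the 10 largest rises, with 9.31, 10.4 and 15.1 normalized counts in scr control and 179, 244 and 263 with shMPZL3 #2 (log2 fold change 4.31 ± 0.32, adjusted p = 4.96e-07). Its 3 controls were close to each other and all far below the knockdown libraries.

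**Figure D2:**
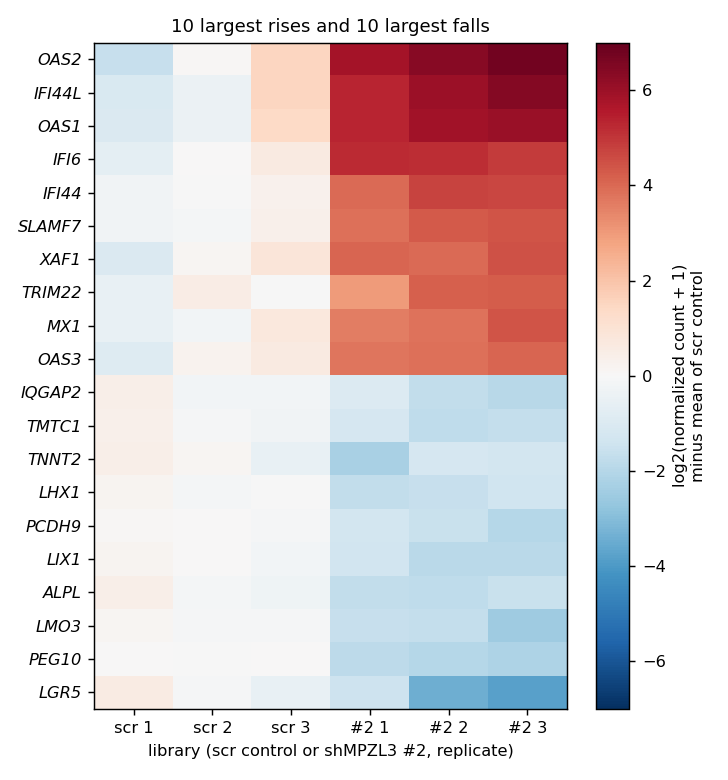
The 10 largest rises and 10 largest falls by the rule for named genes (rows), each library as a column, coloured by log2(normalized count + 1) minus the mean of the scr control libraries. The upper 10 genes are red in all 3 shMPZL3 #2 libraries and the lower 10 blue, with smaller and less even colours among the falls.

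The genes of interferons themselves gave almost no counts. IFNB1, IFNA1, IFNG and IFNL1, named after their values were seen, had 0 counts in all 6 libraries, IFNK had 1 in each group, and IFNL2 and IFNL3 had 0 in scr control and 5 and 3 summed over the shMPZL3 #2 libraries. IFNE had 26 counts summed over scr control and 22 with shMPZL3 #2. None of these genes passed the filter on low counts. Of 26 interferon receptor, JAK-STAT and IRF genes tested, 8 were higher, 1 was lower and the median was 0.35. IRF7, which drives the interferon amplification loop, had 97.1, 155 and 166 normalized counts in scr control and 642, 582 and 952 with shMPZL3 #2 (log2 fold change 2.38 ± 0.28, adjusted p = 2.32e-05), and its groups did not overlap. STAT2 (log2 fold change 0.83 ± 0.12, adjusted p = 0.00016) and IRF1 (log2 fold change 0.86 ± 0.13, adjusted p = 0.000246) rose by less, and IRF9, the partner of STAT2 in the complex ISGF3, had few counts and was short of the threshold (log2 fold change 1.37 ± 0.48, adjusted p = 0.0622). IRF8, a factor best known from myeloid cells, was the gene of this list that fell, from 270, 268 and 270 normalized counts to 108, 95.3 and 119.5 (log2 fold change -1.31 ± 0.15, adjusted p = 2.21e-05). Without scr control replicate 1 or 3 or shMPZL3 #2 replicate 3, 4 genes of this list were called higher, and without scr control replicate 2, 5.

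Sensors of nucleic acids and their adaptors were called higher in 14 of 22 genes and lower in 0, with a median of 0.77, and in 12 genes without scr control replicate 1. IFIH1, the gene of the double-stranded RNA sensor MDA5, had 104, 158 and 261 normalized counts in scr control and 904, 1201 and 1192 with shMPZL3 #2 (log2 fold change 2.66 ± 0.26, adjusted p = 5.07e-06). DDX58, the gene of the sensor RIG-I, had 874, 1086 and 1211 normalized counts in scr control and 1740, 2245 and 2424 with shMPZL3 #2 (log2 fold change 1.02 ± 0.14, adjusted p = 0.000116). TLR3, the endosomal receptor for double-stranded RNA, rose (log2 fold change 1.43 ± 0.23, adjusted p = 0.000351), as did TLR2, a receptor for bacterial lipoproteins (log2 fold change 1.25 ± 0.16, adjusted p = 6.12e-05), and EIF2AK2, the kinase PKR (log2 fold change 0.79 ± 0.12, adjusted p = 0.000179). The groups did not overlap in any of these 5 genes. The adaptors MAVS (log2 fold change -0.03 ± 0.11, adjusted p = 0.892) and TMEM173, the gene of STING (log2 fold change 0.21 ± 0.15, adjusted p = 0.384), did not pass the test. Of 13 genes that process or use small RNAs, 0 were higher by the edgeR test and 2 lower, DICER1 (log2 fold change -0.37 ± 0.10, adjusted p = 0.0254) and TNRC6A (log2 fold change -0.38 ± 0.09, adjusted p = 0.00901), while AGO2 did not pass the test (log2 fold change -0.21 ± 0.09, adjusted p = 0.14). The call for DICER1 was lost when scr control replicate 1 or 2 or shMPZL3 #2 replicate 1 or 3 was left out, with an adjusted p of up to 0.101.

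Genes of antigen presentation by HLA class I rose together, with 16 of 21 higher, 0 lower and a median of 0.81. It was 15 genes without scr control replicate 1. HLA-B, a heavy chain, had 2413, 4639 and 4863 normalized counts in scr control and 16301, 17846 and 15987 with shMPZL3 #2 (log2 fold change 2.07 ± 0.22, adjusted p = 8.43e-06). TAP1, the peptide transporter, had 400.2, 769.7 and 769.9 normalized counts in scr control and 2430, 2640 and 2685 with shMPZL3 #2 (log2 fold change 2.00 ± 0.22, adjusted p = 1.13e-05). Both genes were lowest in scr control replicate 1 and their groups did not overlap. HLA-F, a nonclassical heavy chain, rose from a mean of 60.8 ± 16.8 to 325 ± 22.2 normalized counts (log2 fold change 2.42 ± 0.26, adjusted p = 1.09e-05), TAPBP, the loading factor tapasin, from 2661 ± 407 to 7767 ± 1284 normalized counts (log2 fold change 1.54 ± 0.15, adjusted p = 4.59e-06) and B2M, the light chain, from 11147 ± 1623 to 18485 ± 4000 normalized counts (log2 fold change 0.73 ± 0.14, adjusted p = 0.00246). HLA-C, another heavy chain, rose by 1.26 on the log2 scale. Reads of HLA genes can be shared between these similar loci, and HLA-B and HLA-C overlap on the same strand, so their single values are less certain than the group. Of 6 class II genes tested, 3 were higher and 0 lower, among them the invariant chain CD74 (log2 fold change 0.92 ± 0.13, adjusted p = 0.000111) and the exchange factor HLA-DMB (log2 fold change 1.57 ± 0.23, adjusted p = 0.000177), while CIITA, the master regulator of class II, did not pass the test (log2 fold change 0.48 ± 0.39, adjusted p = 0.454). HLA-DRA had 0 counts in scr control and 2 with shMPZL3 #2 in all.

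**Figure D3:**
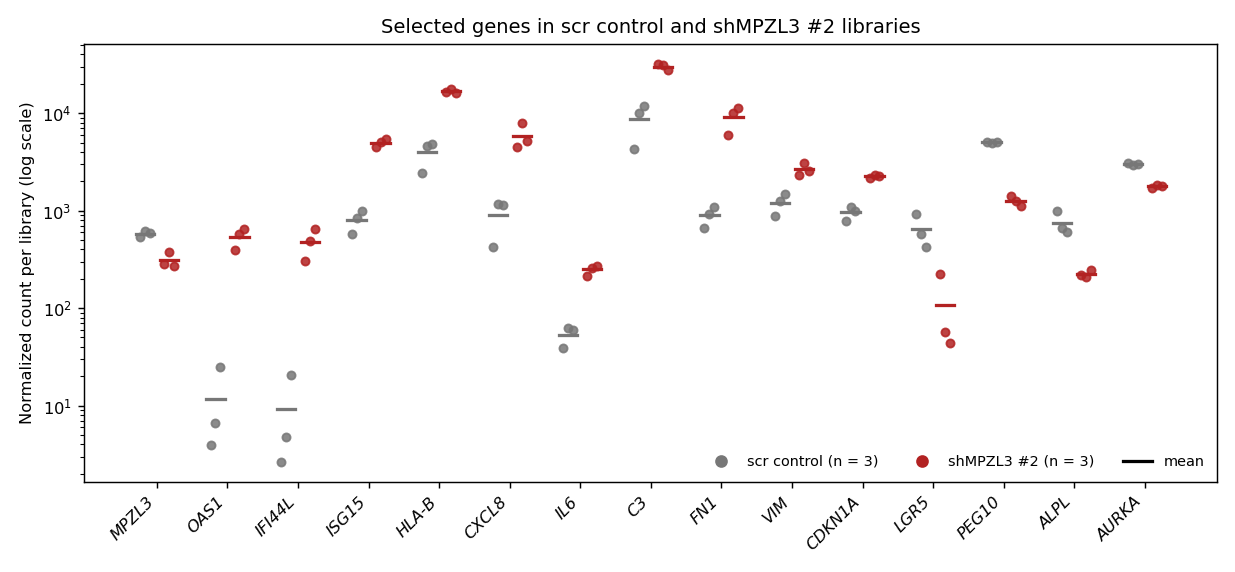
Normalized count per library on a log axis for 15 genes, with scr control in grey and shMPZL3 #2 in red (3 libraries each) and bars at the group means. In each gene shown the 3 red points lie on one side of the 3 grey ones, from MPZL3 and AURKA with small distances to OAS1 and IFI44L with large ones, and the lowest grey point of ISG15, HLA-B, CXCL8 and C3 is replicate 1.

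The second group of large rises was inflammatory. Of 29 NF-kB subunits, inhibitors and targets 22 were higher and 0 lower (median 0.76), and of 33 cytokines and chemokines 22 were higher and 1 lower (median 1.64). Without scr control replicate 1 these counts were 18 and 20 higher. In 24 of the 29 and 25 of the 33 genes that library was the lowest control. A kB-like motif, GGNNTTTCC, was searched in the same windows. It can share letters with the interferon motif, since its other strand reads GGAAANNCC. It stood in 6.26% of all windows. Counted per gene over any of its windows, 20 of 26 matched NF-kB genes (76.9%) and 12 of 25 matched cytokine genes (48%) had it. The stretches around it in 6 genes of these lists are shown with the matches in capitals.
CXCL1, chr4:73869303-73869360, plus strand: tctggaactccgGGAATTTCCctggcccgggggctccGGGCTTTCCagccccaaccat
CXCL3, chr4:74038722-74038779, minus strand: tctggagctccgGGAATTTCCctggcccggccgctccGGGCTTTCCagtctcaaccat
CXCL5, chr4:73998747-73998779, minus strand: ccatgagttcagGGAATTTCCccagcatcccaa
CXCL8, chr4:73740466-73740498, plus strand: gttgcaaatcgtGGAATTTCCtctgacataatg
IL6, chr7:22727116-22727148, plus strand: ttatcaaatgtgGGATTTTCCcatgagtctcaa
TNFAIP3, chr6:137867180-137867224, plus strand: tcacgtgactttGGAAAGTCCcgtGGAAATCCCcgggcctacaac
As above, a match says only that these letters stand in the window.

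The chemokines that attract neutrophils through CXCR2 rose most. CXCL5 (ENSG00000163735, chromosome 4, 73995642 to 73998779) had 221, 640.4 and 639 normalized counts in scr control and 4273, 7406 and 4144 with shMPZL3 #2 (log2 fold change 3.39 ± 0.29, adjusted p = 1.5e-06). CXCL3 had 27.9, 51.9 and 56.4 normalized counts in scr control and 446, 414 and 431 with shMPZL3 #2 (log2 fold change 3.23 ± 0.22, adjusted p = 2.51e-07), CXCL1 had 456, 1490 and 1631 normalized counts in scr control and 8381, 10626 and 7980 with shMPZL3 #2 (log2 fold change 2.91 ± 0.29, adjusted p = 7.44e-06), and CXCL8, interleukin 8, had 424, 1167 and 1136 normalized counts in scr control and 4549, 7836 and 5175 with shMPZL3 #2 (log2 fold change 2.68 ± 0.27, adjusted p = 7.44e-06). The 3 knockdown libraries were above the controls in all 4 genes, and within scr control replicate 1 had less than the other two of each. Each of the 4 was also higher than with shMPZL3 #1, by 3.20 ± 0.29 on the log2 scale (adjusted p = 4.12e-06) for CXCL5, 2.28 ± 0.20 on the log2 scale (adjusted p = 3.48e-06) for CXCL3, 2.12 ± 0.28 on the log2 scale (adjusted p = 0.000121) for CXCL1 and 2.42 ± 0.27 on the log2 scale (adjusted p = 2.39e-05) for CXCL8.

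Other secreted signals gave smaller values. CCL2, which attracts monocytes, had 618, 1417 and 1310 normalized counts in scr control and 3443, 4031 and 3023 with shMPZL3 #2 (log2 fold change 1.65 ± 0.21, adjusted p = 5.55e-05). IL6 had 38.6, 63.2 and 59.1 normalized counts in scr control and 215, 261 and 272 with shMPZL3 #2 (log2 fold change 2.20 ± 0.23, adjusted p = 8.43e-06) and overlaps STEAP1B (log2 fold change 0.01). CXCL10, the interferon-induced T-cell chemokine, had 7.98, 29.2 and 11 normalized counts in scr control and 63.8, 118 and 73.7 with shMPZL3 #2 (log2 fold change 2.31 ± 0.40, adjusted p = 0.000855). The groups of these 3 genes did not overlap, although CXCL10 stayed low. LIF, a cytokine of the IL6 family, rose with little spread from 653 ± 65.7 to 1812 ± 23.7 normalized counts (log2 fold change 1.47 ± 0.11, adjusted p = 4.96e-07). GDF15, a stress-induced cytokine, had 1290, 1049 and 1239 normalized counts in scr control and 3633, 3390 and 4005 with shMPZL3 #2 (log2 fold change 1.63 ± 0.12, adjusted p = 4.96e-07), with the groups wide apart. IL1A rose from 27.3 ± 8.56 to 101 ± 45.3 normalized counts (log2 fold change 1.90 ± 0.37, adjusted p = 0.00197). IL18, a cytokine that is stored as a precursor, was the member of the list that fell, from 1585 ± 151 to 1063 ± 50.1 normalized counts (log2 fold change -0.58 ± 0.13, adjusted p = 0.00599).

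Among the regulators, TNFAIP3, the deubiquitinase A20 that limits NF-kB, had 1064, 1643 and 1544 normalized counts in scr control and 3049, 3201 and 2972 with shMPZL3 #2 (log2 fold change 1.11 ± 0.13, adjusted p = 3.16e-05), and NFKBIA, the inhibitor IkB-alpha, had 1140, 1204 and 1318 normalized counts in scr control and 1861, 1792 and 1905 with shMPZL3 #2 (log2 fold change 0.60 ± 0.09, adjusted p = 0.000322). Neither pair of groups overlapped. BIRC3, an inhibitor of apoptosis and NF-kB target (log2 fold change 2.12 ± 0.34, adjusted p = 0.000454), and the subunit RELB (log2 fold change 0.93 ± 0.17, adjusted p = 0.00112) rose. Of 14 complement genes 4 were higher and 1 lower, and 2 were higher without scr control replicate 1 or 2 or shMPZL3 #2 replicate 3. C3, the central component, had 4255, 9989 and 11793 normalized counts in scr control and 32032, 30839 and 27430 with shMPZL3 #2 (log2 fold change 1.79 ± 0.25, adjusted p = 0.000113). Replicate 1 was by far the lowest control of C3, and its groups did not overlap. CD46, a membrane inhibitor of complement, was the one that fell (log2 fold change -0.60 ± 0.14, adjusted p = 0.00793), a call lost without shMPZL3 #2 replicate 3 (adjusted p = 0.061).

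Extracellular matrix genes formed another group. Of 43 matrix glycoprotein and matricellular genes 19 were higher and 2 lower with a median of 0.47, and of 34 collagen chains and collagen-processing genes 16 were higher and 1 lower with a median of 0.43. Without scr control replicate 1, 14 and 15 were called higher. FN1, fibronectin, had 665, 932 and 1086 normalized counts in scr control and 5995, 9958 and 11196 with shMPZL3 #2 (log2 fold change 3.34 ± 0.29, adjusted p = 1.46e-06). Its lowest knockdown library was more than 5-fold above its highest control. THBS1, thrombospondin, had 5460, 9771 and 10478 normalized counts in scr control and 21588, 21550 and 25422 with shMPZL3 #2 (log2 fold change 1.42 ± 0.20, adjusted p = 0.000114), and TNC, tenascin-C, had 838, 1198 and 1011 normalized counts in scr control and 2402, 1960 and 1826 with shMPZL3 #2 (log2 fold change 1.02 ± 0.13, adjusted p = 5.01e-05). LUM, lumican, a proteoglycan usually made by fibroblasts, had 83, 77 and 62 raw counts in scr control and 210, 318 and 259 with shMPZL3 #2 (log2 fold change 1.45 ± 0.25, adjusted p = 0.000736), while the fibroblast markers DCN and COL3A1 had 0 counts in scr control and at most 4 in a knockdown library. Of the 21 markers of other cell types 10 could be tested, and 4 of them were higher and 0 lower. Beside LUM these were CDH5 of endothelium (log2 fold change 1.05 ± 0.21, adjusted p = 0.00282) and, at 3 to 42 counts in each of the 6 libraries, ITGAM and CD14 of myeloid cells, whose calls were lost without scr control replicate 1 or 3 (adjusted p of up to 0.0723 and 0.18), that of CD14 also without any other library of the comparison, while the immune marker PTPRC did not pass the test (log2 fold change 0.59 ± 0.68, adjusted p = 0.609).

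The basement membrane collagens COL4A1 and COL4A2 start next to each other on opposite strands. COL4A2 had 22754, 29045 and 29442 normalized counts in scr control and 42852, 37736 and 48598 with shMPZL3 #2 (log2 fold change 0.67 ± 0.12, adjusted p = 0.00148). COL4A1 had 17018, 22167 and 23499 normalized counts in scr control and 31331, 30972 and 36717 with shMPZL3 #2 (log2 fold change 0.66 ± 0.12, adjusted p = 0.00144). Each group was separate from the other in both genes, and COL4A3, another chain of the family, rose (log2 fold change 1.66 ± 0.24, adjusted p = 0.000195). The collagen-modifying enzymes LOX (log2 fold change 1.15 ± 0.15, adjusted p = 6.83e-05), LOXL2 (log2 fold change 1.29 ± 0.17, adjusted p = 9e-05) and P4HA2 (log2 fold change 0.70 ± 0.10, adjusted p = 0.000233) rose as well. PCOLCE2, an enhancer of procollagen cleavage, had a lower call (log2 fold change -0.68 ± 0.17, adjusted p = 0.0143) that was lost without scr control replicate 1 or shMPZL3 #2 replicate 1 or 3 (adjusted p of up to 0.08). LAMA1, a laminin chain, fell (log2 fold change -0.83 ± 0.13, adjusted p = 0.00042), and FBN2, fibrillin 2, was called lower (log2 fold change -0.45 ± 0.10, adjusted p = 0.00711), a call lost without shMPZL3 #2 replicate 3 (adjusted p = 0.0724). SPARC, a matricellular protein, had few counts and did not pass the test (log2 fold change -1.78 ± 0.62, adjusted p = 0.0614).

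Of 37 proteases of the matrix, plasminogen genes and their inhibitors 14 were higher and 4 lower, and 12 and 5 without scr control replicate 1. PLAU, the activator urokinase (log2 fold change 0.90 ± 0.14, adjusted p = 0.000306), and its receptor PLAUR (log2 fold change 1.00 ± 0.12, adjusted p = 3.05e-05) rose. MMP7, matrilysin, had 6640, 7343 and 7867 normalized counts in scr control and 16397, 26573 and 21553 with shMPZL3 #2 (log2 fold change 1.56 ± 0.18, adjusted p = 2.09e-05). TIMP2, an inhibitor of metalloproteinases, fell without overlap from 6366 ± 289 to 4222 ± 139 normalized counts (log2 fold change -0.59 ± 0.09, adjusted p = 0.000352), and the secreted proteases ADAMTS15 and ADAMTS1 went apart, the former lower (log2 fold change -1.06 ± 0.14, adjusted p = 9.88e-05) and the latter higher (log2 fold change 0.71 ± 0.10, adjusted p = 8.88e-05). MMP2 did not pass the test (log2 fold change 0.48 ± 0.24, adjusted p = 0.197), and TIMP1 was short of the threshold (log2 fold change 0.34 ± 0.12, adjusted p = 0.0621) but was called higher under 7 alternatives (adjusted p down to 0.02). Of 17 integrin subunits 5 were higher and 1 lower, and 4 and 1 without scr control replicate 1. ITGA2, which binds collagen (log2 fold change 1.67 ± 0.23, adjusted p = 8.88e-05), ITGA3, which binds laminin (log2 fold change 0.56 ± 0.11, adjusted p = 0.00251), and ITGA5, the fibronectin receptor chain (log2 fold change 0.89 ± 0.21, adjusted p = 0.00786), rose. Their partner ITGB1 did not pass the test (log2 fold change 0.14 ± 0.12, adjusted p = 0.472). ITGAV was called lower (log2 fold change -0.43 ± 0.14, adjusted p = 0.0415), a call lost with a minimum of 10 counts in every library and without scr control replicate 2 or 3 or shMPZL3 #2 replicate 1 or 3 (adjusted p of up to 0.177).

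Markers of epithelial and mesenchymal states changed in part. Of 13 mesenchymal marker genes 5 were higher and 1 lower, and 2 were higher without scr control replicate 1 or shMPZL3 #2 replicate 3. VIM, the filament protein vimentin, rose without overlap from 1209 ± 315 to 2647 ± 375 normalized counts (log2 fold change 1.13 ± 0.18, adjusted p = 0.000354), while CDH2, N-cadherin, was short of the threshold (log2 fold change 0.41 ± 0.14, adjusted p = 0.0558) and was called higher under 10 alternatives (adjusted p down to 0.0153). Of 51 epithelial junction genes 9 were higher (17.6%) and 3 lower (5.88%), against 9.36% and 5.8% of all genes tested. The median of the list was 0.09, and 6 were higher without scr control replicate 1 or 2 and 5 without shMPZL3 #2 replicate 3. CDH1, E-cadherin, had 5026, 5217 and 5513 normalized counts in scr control and 5649, 5979 and 6327 with shMPZL3 #2 (log2 fold change 0.19 ± 0.09, adjusted p = 0.177), a difference that did not pass the test although the groups did not overlap. The transcription factors of the epithelial-mesenchymal transition were called in 0 of 4 genes tested by the edgeR test. SNAI1 did not pass the test (log2 fold change -0.04 ± 0.18, adjusted p = 0.902), and SNAI2, TWIST1, TWIST2, ZEB1 and ZEB2 had at most 4 counts in any library. Of the 3 junction genes that were lower, CLDN16 (log2 fold change -0.48 ± 0.12, adjusted p = 0.0159) lost its call without scr control replicate 2 or shMPZL3 #2 replicate 3 (adjusted p of up to 0.127) and CGN, cingulin (log2 fold change -0.33 ± 0.11, adjusted p = 0.0458), without any 1 of the controls, shMPZL3 #1 replicate 1 or shMPZL3 #2 replicate 2 or 3, and with a minimum of 10 counts or protein-coding genes alone (up to 0.175). GRHL2, an epithelial factor, was the other one called lower (log2 fold change -0.32 ± 0.09, adjusted p = 0.025), and this call was lost without any 1 of the controls or shMPZL3 #2 replicate 3 and without the low-count filter (adjusted p of up to 0.151). ESRP1, an epithelial splicing factor, did not pass the test (log2 fold change -0.06 ± 0.10, adjusted p = 0.745).

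Claudin and cadherin genes went in different directions. CLDN1 had 9334, 11640 and 11971 normalized counts in scr control and 18063, 21556 and 17199 with shMPZL3 #2 (log2 fold change 0.79 ± 0.12, adjusted p = 0.000331). CDH6, kidney cadherin, fell from 11791 ± 1137 to 6596 ± 93.9 normalized counts (log2 fold change -0.84 ± 0.10, adjusted p = 3.53e-05), and L1CAM, an adhesion protein of the immunoglobulin family, rose from 5868 ± 826 to 12954 ± 776 normalized counts (log2 fold change 1.14 ± 0.12, adjusted p = 8.15e-06). Of 21 genes of MPZL3, its relatives and other junctional immunoglobulin proteins 3 were higher (14.3%) and 4 lower (19%), against 9.36% and 5.8% of all genes. On this list 2 were lower without any 1 of the controls or shMPZL3 #2 replicate 3, and 5 were higher without shMPZL3 #2 replicate 2. NECTIN3 had the largest fall among them, with 1872, 1978 and 1745 normalized counts in scr control and 940.4, 1004 and 847 with shMPZL3 #2 (log2 fold change -1.005 ± 0.12, adjusted p = 2.24e-05). The closest relatives, MPZL1 (log2 fold change 0.17 ± 0.09, adjusted p = 0.234) and MPZL2 (log2 fold change 0.29 ± 0.13, adjusted p = 0.156), did not pass the test, and CEACAM1 rose (log2 fold change 1.47 ± 0.25, adjusted p = 0.000632). Of 17 keratins 5 were higher and 1 lower, with 2 higher without scr control replicate 1 or 2 or shMPZL3 #2 replicate 3 and 3 without shMPZL3 #2 replicate 1. KRT17, which was among those higher, had 8227, 10295 and 10968 normalized counts in scr control and 20271, 18349 and 24176 with shMPZL3 #2 (log2 fold change 1.09 ± 0.14, adjusted p = 5.13e-05). The simple epithelial keratins KRT8 (log2 fold change -0.004 ± 0.11, adjusted p = 0.987), KRT18 (log2 fold change 0.23 ± 0.13, adjusted p = 0.24) and KRT19 (log2 fold change 0.11 ± 0.14, adjusted p = 0.626) did not pass the test, and reads of KRT8 and KRT18 can be shared where these genes overlap. KRT5, a basal keratin, was called lower (log2 fold change -1.39 ± 0.36, adjusted p = 0.0156), but not without scr control replicate 1 (adjusted p = 0.0611).

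Actin and contractile genes were called higher in 13 of 39 and lower in 0, with a median of 0.15, but in 4 genes without scr control replicate 1, which was the lowest control in 33 of the 39, and in 7 without shMPZL3 #2 replicate 3. ACTN1, alpha-actinin (log2 fold change 0.74 ± 0.11, adjusted p = 0.000183), and LMOD1, leiomodin (log2 fold change 0.83 ± 0.14, adjusted p = 0.000596), rose. Of 31 genes of the YAP-TEAD pathway 11 were higher and 1 lower, with 7 higher without that control. CYR61 had 21919, 25162 and 27010 normalized counts in scr control and 43642, 41882 and 48141 with shMPZL3 #2 (log2 fold change 0.85 ± 0.11, adjusted p = 4.7e-05). CTGF (log2 fold change 0.64 ± 0.10, adjusted p = 0.000505) and ANKRD1 (log2 fold change 1.24 ± 0.14, adjusted p = 1.83e-05), which with CYR61 are the usual readouts of this pathway, rose too, AMOTL2 did not pass the test (log2 fold change 0.15 ± 0.10, adjusted p = 0.323), and FSTL1, a secreted glycoprotein, was the gene that fell (log2 fold change -0.45 ± 0.10, adjusted p = 0.00515). AP-1 and immediate early factors were higher in 13 of 26 and lower in 0. Without scr control replicate 1, 10 were higher. ATF3 (log2 fold change 1.44 ± 0.15, adjusted p = 8.28e-06) and the phosphatase DUSP1 (log2 fold change 0.79 ± 0.10, adjusted p = 7.2e-05) were among those called higher. EGR1 did not pass the test (log2 fold change 0.03 ± 0.17, adjusted p = 0.937).

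The 37 TGF-beta and activin pathway genes split, with 10 higher and 6 lower (median -0.04), and 5 higher without scr control replicate 1 or 2 or shMPZL3 #2 replicate 3. The ligands TGFB2 (log2 fold change 1.09 ± 0.18, adjusted p = 0.000456), INHBE (log2 fold change 2.31 ± 0.26, adjusted p = 1.66e-05) and BMP6 (log2 fold change 1.39 ± 0.17, adjusted p = 4.71e-05) rose. BMP7 fell with 8659, 8303 and 7714 normalized counts in scr control and 4918, 3346 and 3209 with shMPZL3 #2 (log2 fold change -1.10 ± 0.16, adjusted p = 0.000177). Its groups did not overlap. The receptor gene TGFBR2 (log2 fold change -0.66 ± 0.09, adjusted p = 0.000111), the inhibitor SMAD6 (log2 fold change -0.74 ± 0.11, adjusted p = 0.000253) and the BMP targets ID1 (log2 fold change -0.58 ± 0.10, adjusted p = 0.000568) and ID2 (log2 fold change -1.37 ± 0.17, adjusted p = 4.72e-05) fell as well. Of 35 growth factor and EGF receptor genes 10 were higher and 4 lower, with 4 higher without scr control replicate 1 and 6 without shMPZL3 #2 replicate 3. TGFA (log2 fold change 1.29 ± 0.14, adjusted p = 1.66e-05), HBEGF (log2 fold change 0.59 ± 0.11, adjusted p = 0.00205) and PDGFB (log2 fold change 0.66 ± 0.12, adjusted p = 0.00148) rose and the receptors EGFR (log2 fold change -0.43 ± 0.10, adjusted p = 0.00697), ERBB4 (log2 fold change -1.08 ± 0.12, adjusted p = 1.84e-05) and FGFR2 (log2 fold change -0.54 ± 0.09, adjusted p = 0.000806) fell, while ERBB2 did not pass the test (log2 fold change 0.02 ± 0.11, adjusted p = 0.918).

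**Figure D4:**
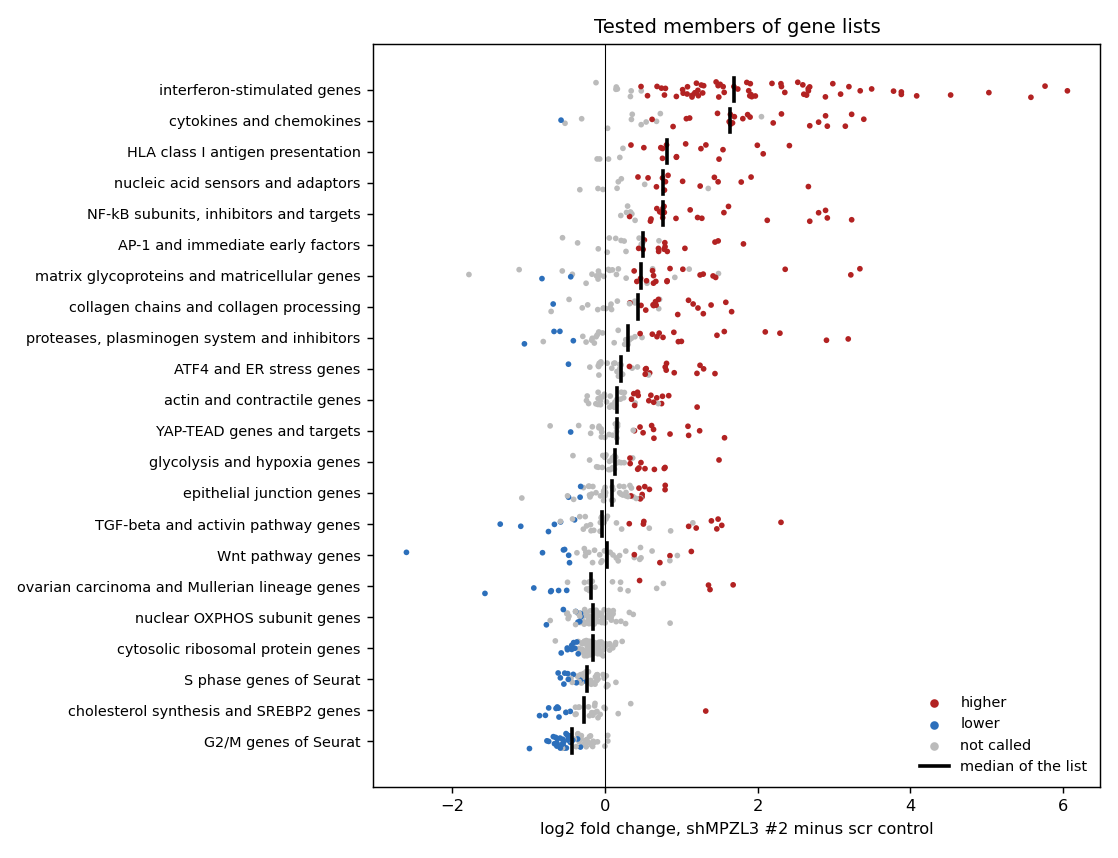
Log2 fold change of shMPZL3 #2 against scr control for each tested member of 22 gene lists (points, red called higher, blue called lower, grey not called), with black bars at the list medians. Interferon-stimulated genes and cytokines reach furthest to the right, and the G2/M list has the lowest median (-0.44).

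The falls were fewer and more scattered in function. LGR5, a receptor for R-spondin and a Wnt target, was the largest by the rule for named genes, with 920.1, 580.1 and 424 normalized counts in scr control and 222, 56.8 and 43.6 with shMPZL3 #2 (log2 fold change -2.60 ± 0.48, adjusted p = 0.00135). The knockdown replicate 1 kept more of it than the other two, and the groups did not overlap. PEG10, an imprinted gene derived from a retrotransposon, had 5095, 4905 and 5006 normalized counts in scr control and 1413, 1246 and 1115 with shMPZL3 #2 (log2 fold change -1.99 ± 0.13, adjusted p = 1.88e-07), with close values within each group. It overlaps SGCE, whose log2 fold change was -0.45. ALPL, tissue-nonspecific alkaline phosphatase, had 985, 657 and 602 normalized counts in scr control and 219.7, 210.0 and 246 with shMPZL3 #2 (log2 fold change -1.73 ± 0.18, adjusted p = 8.15e-06).

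LIX1 had 5353, 4885 and 4116 normalized counts in scr control and 1853, 1298 and 1272 with shMPZL3 #2 (log2 fold change -1.70 ± 0.20, adjusted p = 2.57e-05), and LMO3, a LIM-only transcriptional regulator, had 993, 837 and 846 normalized counts in scr control and 293, 276 and 156 with shMPZL3 #2 (log2 fold change -1.89 ± 0.20, adjusted p = 1.01e-05). LMO3 overlaps MGST1 (log2 fold change -0.28). The groups did not overlap in either gene. PCDH9, a protocadherin (log2 fold change -1.63 ± 0.27, adjusted p = 0.000471), and LHX1, a homeobox factor of the urogenital tract (log2 fold change -1.57 ± 0.22, adjusted p = 0.000111), fell. So did TNNT2, a troponin (log2 fold change -1.56 ± 0.34, adjusted p = 0.00497), TMTC1 (log2 fold change -1.54 ± 0.17, adjusted p = 1.11e-05) and IQGAP2, a scaffold protein (log2 fold change -1.54 ± 0.23, adjusted p = 0.000246). TNNT2 overlaps LAD1 (log2 fold change -0.28) on the same strand. HMGA2, a chromatin protein of stem and tumour cells, fell (log2 fold change -1.12 ± 0.14, adjusted p = 3.14e-05).

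Of 34 Wnt pathway genes 4 were higher (11.8%) and 6 lower (17.6%), against 9.36% and 5.8% of all genes tested. Without scr control replicate 1, or without shMPZL3 #2 replicate 3, 1 was higher and 3 were lower. WLS, which carries Wnt ligands to the surface (log2 fold change -0.53 ± 0.09, adjusted p = 0.000668), and the ligand WNT7A (log2 fold change -0.55 ± 0.13, adjusted p = 0.00881) fell, while NOTUM, which inactivates Wnt ligands, rose (log2 fold change 1.13 ± 0.16, adjusted p = 0.000133). AXIN2, a target of the pathway, was called lower (log2 fold change -0.82 ± 0.24, adjusted p = 0.029), but not without any 1 of the controls or shMPZL3 #2 replicate 2 or 3 (adjusted p of up to 0.12). Of 24 ovarian carcinoma and Mullerian lineage genes 4 were higher and 6 lower (median -0.19). WFDC2, the gene of the serum marker HE4, had 1225, 1202 and 1114 normalized counts in scr control and 3178, 2641 and 3237 with shMPZL3 #2 (log2 fold change 1.35 ± 0.12, adjusted p = 1.94e-06), and its groups were far apart. MUC1 (log2 fold change 1.38 ± 0.16, adjusted p = 2.85e-05) and LCN2 (log2 fold change 1.68 ± 0.28, adjusted p = 0.000555), a secreted siderophore-binding protein, rose. FOLR1, the folate receptor (log2 fold change -0.70 ± 0.12, adjusted p = 0.000668), EMX2 (log2 fold change -0.71 ± 0.13, adjusted p = 0.00147) and CRABP2 (log2 fold change -0.93 ± 0.12, adjusted p = 7.09e-05) fell. PAX8 (log2 fold change 0.20 ± 0.10, adjusted p = 0.207), MUC16, the gene of CA-125 (log2 fold change -0.24 ± 0.16, adjusted p = 0.33), and EPCAM (log2 fold change 0 ± 0.09, adjusted p = 0.999) did not pass the test.

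Genes of proliferation were lower by small amounts. Of 54 G2/M genes 28 were called lower and 0 higher (median -0.44), and of 42 S phase genes 10 lower and 0 higher (median -0.24). These are the lists that the Seurat package uses to score the cell cycle. The G2/M count was 20, 15 and 19 without scr control replicate 1, 2 or 3, and 18 and 11 without shMPZL3 #2 replicate 1 or 3. The S phase count was 2, 1 and 5 without scr control replicate 1, 2 or 3, and 4 and 1 without shMPZL3 #2 replicate 1 or 3. In 44 of the 54 G2/M genes all knockdown libraries lay below all controls, which held for 17.6% of all genes tested. AURKA, a kinase of the mitotic spindle, had 3050, 2939 and 3032 normalized counts in scr control and 1716, 1831 and 1771 with shMPZL3 #2 (log2 fold change -0.76 ± 0.12, adjusted p = 0.000256). ANP32E, a histone chaperone of the list, fell most, from 5457 ± 316 to 2746 ± 378 normalized counts (log2 fold change -0.99 ± 0.14, adjusted p = 0.000114). CENPF of the kinetochore (log2 fold change -0.55 ± 0.11, adjusted p = 0.00243), ANLN of the cleavage furrow (log2 fold change -0.63 ± 0.13, adjusted p = 0.00307) and, outside these lists, CDK2 (log2 fold change -0.55 ± 0.09, adjusted p = 0.000687) fell. CCND1, cyclin D1, did not pass the test (log2 fold change -0.23 ± 0.09, adjusted p = 0.108). Of 33 senescence-linked cell cycle genes 5 were higher (15.2%) and 6 lower (18.2%). Of 71 replication-dependent histone genes listed, 33 had enough counts to be tested in these poly(A) libraries. Of these 33, 3 were higher (9.09%) and 1 lower (3.03%), against 9.36% and 5.8% of all genes tested. On the senescence-linked list 3 were higher without any 1 of the controls or shMPZL3 #2 replicate 3. The histone list had 0 lower by edgeR without scr control replicate 1 or shMPZL3 #2 replicate 3, 2 without shMPZL3 #1 replicate 2, and 3 without shMPZL3 #1 replicate 3 or shMPZL3 #2 replicate 2.

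The cell cycle inhibitor CDKN1A, p21, rose, with 791, 1090 and 995 normalized counts in scr control and 2174, 2296 and 2252 with shMPZL3 #2 (log2 fold change 1.22 ± 0.13, adjusted p = 1.1e-05). Its groups did not overlap. Of 23 p53 targets 8 were higher and 1 lower, with 4 higher without scr control replicate 1 and 5 without scr control replicate 3 or shMPZL3 #2 replicate 3. GADD45A (log2 fold change 1.56 ± 0.18, adjusted p = 2.21e-05) and SESN2 (log2 fold change 0.80 ± 0.13, adjusted p = 0.000568), both induced by stress, rose and RRM2B, a subunit of ribonucleotide reductase, fell (log2 fold change -0.74 ± 0.15, adjusted p = 0.00259). The inhibitors CDKN2A (log2 fold change 0.10 ± 0.09, adjusted p = 0.522) and CDKN2B (log2 fold change 0.25 ± 0.14, adjusted p = 0.252) did not pass the test. Of 38 BCL2 family and death receptor genes 8 were higher and 2 lower, with 5 higher without scr control replicate 1. CFLAR, which blocks death receptor signalling (log2 fold change 0.69 ± 0.12, adjusted p = 0.000695), and the receptor TNFRSF10B (log2 fold change 0.47 ± 0.10, adjusted p = 0.00581) rose. BCL2L11, the killer protein BIM, fell (log2 fold change -0.60 ± 0.11, adjusted p = 0.00104), and TNFSF10, the ligand TRAIL, did not pass the test (log2 fold change 0.34 ± 0.22, adjusted p = 0.308).

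Calls moved with the GC content of the longest transcript. Over 5 equal groups of genes from the lowest to the highest GC, the share called higher was 4.35%, 8.27%, 9.34%, 11.5% and 13.4%, and the share called lower 12.3%, 7.95%, 4.23%, 2.93% and 1.6%. The medians of log2 fold change went from -0.17 to 0.14. After a correction of GC and length, chosen after seeing the data, they lay between -0.019 and -0.006. The G2/M genes had a median GC of 43.1% and the S phase genes 44.5%, and with the correction 31 G2/M genes were lower with a median of -0.35. Interferon-stimulated genes had a median GC of 44.4%, and 64 of them were higher with the correction.

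**Figure D5:**
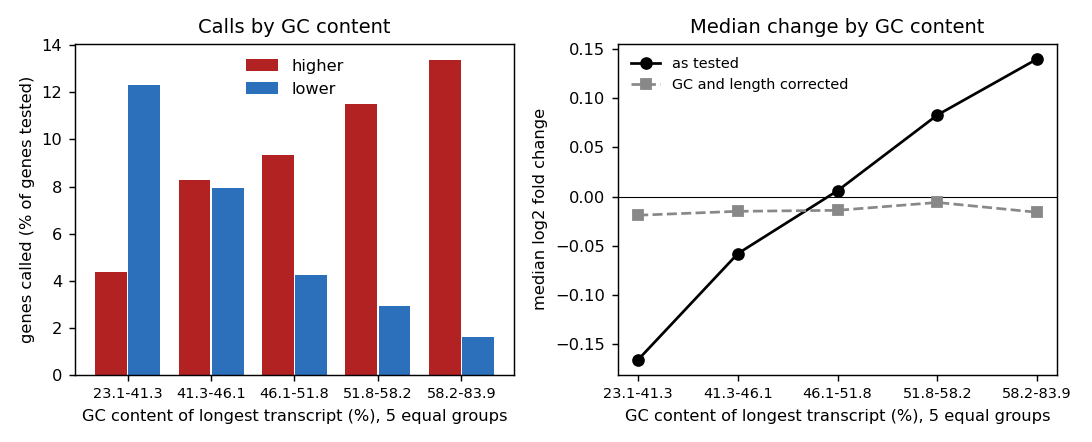
Left, the share of genes tested that were called higher (red) or lower (blue) in each of 5 equal groups of genes by GC content of the longest transcript. Right, the median log2 fold change of the same groups as tested (black) and after GC and length correction (grey), which runs from -0.166 to 0.14 before the correction and stays near 0 after it.

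Nuclear genes of ribosomes and respiration had small negative medians, and most were not called. Called lower were 10.7% of cytosolic ribosomal, 8.97% of mitochondrial ribosomal and 8.86% of nuclear oxidative phosphorylation genes. Over all genes tested it was 5.8%. Of 84 cytosolic ribosomal protein genes 9 were lower and 0 higher (median -0.16). Without scr control replicate 1, 0 were called lower by edgeR, although 11 had an unadjusted p under 0.05, and without scr control replicate 2 or shMPZL3 #2 replicate 1 or 3 it was 4, 3 and 1. Of 78 mitochondrial ribosomal protein genes 7 were lower and 1 higher, and of 79 nuclear subunit genes of oxidative phosphorylation 7 were lower and 0 higher (median -0.16), with 0 (9 at an unadjusted p under 0.05) and 2 lower without scr control replicate 1 and 1 and 2 without shMPZL3 #2 replicate 3. In 48 of the 84, 24 of the 78 and 32 of the 79 genes all knockdown libraries lay below all controls. Over all genes tested this share was 17.6%. Of 13 protein genes of the mitochondrial genome 1 was higher, MT-CO2, and 0 lower. SDHD, a subunit of succinate dehydrogenase, fell (log2 fold change -0.77 ± 0.16, adjusted p = 0.00332).

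Of 30 genes on a list of cholesterol synthesis, SREBP2 and related genes 9 were lower and 1 higher (median -0.28). On this list 6 were lower without scr control replicate 1 and 3 without shMPZL3 #2 replicate 3. IDI1 of the mevalonate pathway (log2 fold change -0.78 ± 0.17, adjusted p = 0.00604) and MYLIP, a ubiquitin ligase (log2 fold change -0.86 ± 0.12, adjusted p = 0.000118), fell. Of 36 genes of fatty acid synthesis and lipid droplets 2 were higher and 5 lower, with 3 lower without scr control replicate 1 or 2 or shMPZL3 #2 replicate 3. PLIN2, a coat protein of lipid droplets, rose (log2 fold change 0.83 ± 0.17, adjusted p = 0.00351). GPAM (log2 fold change -0.71 ± 0.11, adjusted p = 0.000413) and LPIN1 (log2 fold change -0.84 ± 0.12, adjusted p = 0.000149), enzymes of glycerolipid synthesis, fell, and FASN, fatty acid synthase, did not pass the test (log2 fold change -0.18 ± 0.18, adjusted p = 0.543).

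Of 34 genes of glycolysis and hypoxia 10 were higher and 0 lower, with 5, 4 and 6 higher without scr control replicate 1, 2 or 3, and 6 and 4 without shMPZL3 #2 replicate 1 or 3. ADM, adrenomedullin (log2 fold change 1.49 ± 0.18, adjusted p = 3.49e-05), the hydroxylase EGLN3 (log2 fold change 0.78 ± 0.12, adjusted p = 0.000217) and the enolase ENO2 (log2 fold change 0.79 ± 0.14, adjusted p = 0.000979) rose, and LDHA did not pass the test (log2 fold change -0.004 ± 0.11, adjusted p = 0.987). Of 35 genes of ATF4 and the endoplasmic reticulum stress response 13 were higher and 1 lower, with 10 to 14 higher over the libraries left out. TRIB3, a pseudokinase target of ATF4, had 697, 604 and 641 normalized counts in scr control and 1382, 1442 and 1915 with shMPZL3 #2 (log2 fold change 1.29 ± 0.13, adjusted p = 7.53e-06). PPP1R15A (log2 fold change 0.91 ± 0.14, adjusted p = 0.000212) and DDIT3 (log2 fold change 0.79 ± 0.15, adjusted p = 0.002) rose, PSAT1 fell (log2 fold change -0.48 ± 0.11, adjusted p = 0.00573), and ATF4 (log2 fold change 0.21 ± 0.12, adjusted p = 0.246) and the chaperone HSPA5 (log2 fold change 0.09 ± 0.09, adjusted p = 0.548) did not pass the test. Of 25 NRF2 targets, ferritins and metallothioneins 2 were higher, HMOX1 (log2 fold change 0.67 ± 0.15, adjusted p = 0.00676) and MT2A (log2 fold change 0.98 ± 0.20, adjusted p = 0.00351), and 1 lower. That was SLC30A1, a zinc exporter (log2 fold change -0.33 ± 0.10, adjusted p = 0.0308), whose call was lost without any 1 of the controls, without shMPZL3 #2 replicate 1 or 3, without the low-count filter and with the GC and length correction (adjusted p of up to 0.189). NQO1 did not pass the test (log2 fold change -0.06 ± 0.11, adjusted p = 0.751). The shares called on this NRF2 list were 8% higher and 4% lower, against 9.36% and 5.8% of all genes tested.

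By the number of normalized counts gained, which grows with the length and level of a transcript, MT-CO2, C3, MYH9, CYR61 and COL4A2 led. MT-CO2, a mitochondrially encoded subunit of cytochrome oxidase, went from 131682 ± 5977 to 173163 ± 11526 normalized counts (log2 fold change 0.40 ± 0.10, adjusted p = 0.00966), and did not keep the call without scr control replicate 2 or shMPZL3 #2 replicate 1 (adjusted p of up to 0.0714). MYH9, nonmuscle myosin, went from 57691 ± 3894 to 77963 ± 11286 normalized counts (log2 fold change 0.43 ± 0.12, adjusted p = 0.0219), and did not keep the call without scr control replicate 1 or 2 or shMPZL3 #2 replicate 1 or 3 (up to 0.119). Among the losses, HSP90AA1, a cytosolic chaperone, had 66257, 59603 and 58658 normalized counts in scr control and 40663, 46442 and 40242 with shMPZL3 #2 (log2 fold change -0.54 ± 0.11, adjusted p = 0.00356). ARHGAP29 had 15754, 16603 and 16225 normalized counts in scr control and 8403, 11037 and 9499 with shMPZL3 #2 (log2 fold change -0.75 ± 0.11, adjusted p = 0.00023), and ABLIM1, an actin-binding protein, had 13798, 14318 and 14780 normalized counts in scr control and 8897, 9393 and 8960 with shMPZL3 #2 (log2 fold change -0.66 ± 0.09, adjusted p = 0.000103). The groups of these 3 genes did not overlap. HNRNPA2B1, an RNA-binding protein, went from 23602 ± 999 to 18464 ± 492 normalized counts (log2 fold change -0.35 ± 0.09, adjusted p = 0.0144), and did not keep the call without scr control replicate 1 or 2 or shMPZL3 #2 replicate 3 and with the GC and length correction (up to 0.0916).

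Among genes annotated as non-coding, LINC01133 rose with 17.3, 17.9 and 23.4 normalized counts in scr control and 105, 137 and 132 with shMPZL3 #2 (log2 fold change 2.68 ± 0.34, adjusted p = 5.55e-05). WFDC21P, a transcribed pseudogene, had 31.9, 101 and 82.5 normalized counts in scr control and 259, 322 and 304.4 with shMPZL3 #2 (log2 fold change 2.01 ± 0.27, adjusted p = 8.47e-05). The groups of both did not overlap. AC025580.1 rose (log2 fold change 2.17 ± 0.31, adjusted p = 0.000147) and overlaps C15orf48, whose log2 fold change was 3.19. Reads from bases that AC025580.1 shares with C15orf48 cannot be told apart, because the libraries kept no strand. LINC00621 (log2 fold change -1.63 ± 0.22, adjusted p = 8.73e-05), HMGB1P10 (log2 fold change -1.80 ± 0.39, adjusted p = 0.00453) and COL18A1-AS1 (log2 fold change -1.63 ± 0.33, adjusted p = 0.00306) fell, and each of them overlaps another counted gene.

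Set against shMPZL3 #1 directly, 1279 genes were higher with shMPZL3 #2 (7.56%) and 1280 lower (7.56%), 2559 in all. Without shMPZL3 #1 replicate 3 or shMPZL3 #2 replicate 1 or 3 the sum was 1584, 1647 and 1469. Both hairpins share the scr control libraries, so that their changes against it are not independent. Of the 1585 genes that rose with shMPZL3 #2, 299 were higher than with shMPZL3 #1, 104 were lower and 1182 did not pass that test. Of the 982 that fell, 214 were lower still than with shMPZL3 #1, 65 were higher and 703 did not pass that test. Of the 69 interferon-stimulated genes 13 were higher than with shMPZL3 #1 and 5 lower, and of the 21 HLA class I genes 0 and 0 by the edgeR test. Of the 29 NF-kB genes 11 were higher and 1 lower, and of the cytokines and chemokines 13 and 5.

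Lower than with shMPZL3 #1 were, among the genes described, PLAU by -1.50 ± 0.14 on the log2 scale (adjusted p = 4.12e-06), VIM by -0.86 ± 0.17 on the log2 scale (adjusted p = 0.00328) and CEACAM1 by -1.30 ± 0.22 on the log2 scale (adjusted p = 0.000798). Higher were SLAMF7 by 2.18 ± 0.26 on the log2 scale (adjusted p = 4.26e-05), FN1 by 1.47 ± 0.26 on the log2 scale (adjusted p = 0.00135) and TRIB3 by 1.34 ± 0.13 on the log2 scale (adjusted p = 8.14e-06). Part of the proliferation genes had higher levels than with shMPZL3 #1, namely 20 of the 54 G2/M and 12 of the 42 S phase genes, and 0 were lower. The same held for 45 of the 84 ribosomal protein genes, with 0 lower. Of the 39 actin and contractile genes 13 were lower than with shMPZL3 #1 and 2 higher, and of the 37 TGF-beta and activin genes 14 lower and 6 higher. The hairpins also left different levels of MPZL3, so that a difference between them cannot be told apart from a difference in the remaining MPZL3.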

How the data were processed

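RNA-seq of OVCAR4 cells, 3 libraries in each of 3 groups, was analysed from gene counts. The authors deposited a table of raw read counts per gene, made from non-stranded poly(A) libraries. The submitters' processing notes name HISAT2 2.0.5, featureCounts 1.5.0-p3 and hg38. Per the labels, the samples were grouped as scr control, shMPZL3 #1 and shMPZL3 #2. Deposited totals were 15040102 to 27835841 counts per library. From the counts, TMM factors, the filterByExpr filter and the quasi-likelihood test of edgeR 4.0.16 (R 4.3.3) were used on all 9 libraries in a 3-group model with the two-sided contrast of shMPZL3 #2 minus scr control. Benjamini-Hochberg adjustment covered 16928 genes, with calls at an adjusted p under 0.05. Standard errors are the log2 fold change divided by the root of the F statistic. P-values measure the spread between 3 biological replicates, whose separate cultures are not described further in the sources used here.

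The genes named are MPZL3, the 10 largest rises and 10 largest falls among called protein-coding genes that averaged at least 1 log2 CPM and whose groups did not overlap, the 5 largest gains and 5 largest losses in normalized counts among them, from each of 41 gene lists the key members and up to 4 called members per direction with the smallest adjusted p, and the 3 largest non-coding rises and falls. Some genes that meet this rule are not reported here. The lists and genes were chosen with earlier results of these data known. An overlap here means that the whole span of a gene, introns included, meets that of another gene on either strand. Whether their exons share bases was not examined. Only reads from shared bases cannot be assigned to one of the genes. A partner with at least 10% of a gene's counts is stated above for part of the genes. Such a partner, not stated above, was also present for BCL2L11, CIITA, DDIT3, EGLN3, EIF2AK2, EMX2, ENO2, ERBB2 and HNRNPA2B1. The same holds for IRF1, IRF9, LOX, LOXL2, PAX8, SDHD, TAP1 and TNFRSF10B, and COL4A1 and COL4A2 overlap each other. The partner had more counts than the gene for DDIT3 (MARS), EMX2 (EMX2OS) and LOXL2 (ENTPD4, same strand). Alternatives were DESeq2 1.42.0 (1644 adjusted p-values NA), other scalings and filters, the 6 libraries alone, a replicate block, thinning to 15040102 counts, each library left out and, added after seeing the data, a GC and length correction. The scripts were checked on simulated data. Cell cycle lists are those of Seurat 5.3.0, and promoter windows are from RefSeq on GRCh38.p14. The target sequence of the hairpin is not shown here.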

Additional observations from a re-analysis of the deposited data

Results flagged for a closer look

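Of the genes described, 5 differed in direction between the hairpins, each called against scr control with both and called in the direct contrast of shMPZL3 #2 with shMPZL3 #1. Both contrasts share the scr control libraries. All values are edgeR quasi-likelihood tests in the 3-group fit.

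MT2A, a metallothionein that binds zinc and copper, had 4461 ± 1003 normalized counts with the scramble hairpin, rose to 8778 ± 240.7 in cells carrying shMPZL3 #2, and fell to 2087 ± 846 in those carrying shMPZL3 #1 (SD over 3 libraries, here and below). The difference between the hairpins was 2.07 ± 0.21 on the log2 scale (adjusted p = 1.1e-05). ENO2, the neuronal enolase, rose from 788 ± 141 to 1353 ± 237 under shMPZL3 #2 and fell to 577 ± 22.7 under shMPZL3 #1, a difference of 1.23 ± 0.14 (adjusted p = 3.37e-05). TIMP2 went the other way, with 6366 ± 289, 4222 ± 139 and 9671 ± 732 normalized counts in the same order and a difference of -1.20 ± 0.09 (adjusted p = 9.89e-07).

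ITGAV, the alpha V integrin chain, had 13248 ± 1483 normalized counts in scr control against 9857 ± 1463 under shMPZL3 #2 and 18224 ± 3402 under shMPZL3 #1 (difference -0.89 ± 0.14, adjusted p = 0.000386), and its call against scr control was among those lost in 5 alternatives. WLS had 8175 ± 275, 5661 ± 346 and 9671 ± 293 (difference -0.77 ± 0.09, adjusted p = 3.79e-05). With MPZL3 itself less reduced by shMPZL3 #2, these differences cannot be told apart from a difference in the remaining MPZL3.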

How the results depend on the processing

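No called gene named above changed direction under any alternative run, while the log2 fold change of 11 named genes that were not called changed sign in some alternative. The median of all genes was 0.003 and became -0.015 with the GC and length correction. The counts of at least 2-fold changes (572 higher, 114 lower) and of higher interferon-stimulated (53 to 64), HLA class I (15 to 16), NF-kB (18 to 25), cytokine (19 to 24), matrix (13 to 22) and collagen genes (14 to 17) stayed within 1.5 times of the values reported. With each library left out in turn, 910 to 1732 genes were higher, 354 to 1388 lower and 1469 to 2953 called between the hairpins. In the same order of settings, 11 to 35 G2/M, 1 to 16 S phase, 3 to 12 cholesterol, 0 to 15 ribosomal protein and 2 to 16 oxidative phosphorylation genes were lower. With the 6 libraries alone, 17 S phase, 19 ribosomal protein and 14 oxidative phosphorylation genes were lower. With the GC and length correction, chosen after seeing the data, 16 ribosomal protein genes were lower and 3948 genes were called between the hairpins. The share of higher genes among the calls was 61.7%, 74.1% without shMPZL3 #2 replicate 3 and 54.6% without replicate 2 of that group. The causes were not tested.

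By the labels, the samples of different groups share only a replicate number. Whether that number marks a shared day or batch is not given in the sources used here, and the main test did not use it. Deviations of scr control and shMPZL3 #2 libraries with the same number correlated at 0.04, -0.001 and 0.038 over genes, and those of the hairpins at 0.137, 0.218 and 0.097, and 2 of 3 scr control libraries matched their own number best. With a replicate block 2083 genes were higher and 1597 lower, and 17 S phase, 15 cholesterol, 19 ribosomal protein and 16 oxidative phosphorylation genes were lower. MPZL3 kept its call under every alternative, with a log2 fold change of -1.06 to -0.79 over the libraries left out. Of 204 other genes named, 170 were called, of which 154 kept the call under every alternative, 10 lost it only with a library left out and 6 also or only in another alternative, and of the 34 not called 7 were called under some alternative (CCND1, CDH2, IRF9, ITGB1, MPZL2, SPARC and TIMP1). With 2 libraries in a group, or few control counts as for OAS2, sizes are less certain than directions.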
